A study of Mus musculus with 14 samples.

Results

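Untreated cells of the partial clone 2B1 were compared with untreated cells of the partial clone 5C5, to describe how far clones that stopped at the same labelled stage of reprogramming differed in their mRNA. Members of the comparison were autosomal probe sets with a single gene symbol whose values lay at least 1 log2 unit apart on these 2 arrays. A log2 unit is a doubling of the array signal. Of 33584 autosomal probe sets with 1 symbol, out of 45101 on the array, 2272 met the rule (6.77%). They stood for 1749 of 17401 autosomal genes. In 2B1, 980 probe sets were higher (2.92%), and in 5C5, 1292 were higher (3.85%). Each clone gave 1 untreated array, so no spread within a clone was measured and no test was possible. Every difference of this comparison is a description of those arrays.

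Both clones were female and C57BL/6. They were grown in ordinary ESC medium with serum and leukemia inhibitory factor (LIF). Each clone also gave 1 array of the iPSCs it became in 2i, a medium that blocks the kinases MEK and GSK3. Reference arrays came from fibroblasts of Nanog-GFP transgenic embryos (MEFs; mixed sex, C57BL/6, 12.5 dpc by the sample title, while the series text gives a later day), from Nanog-GFP ESCs (male, C57BL/6) and from the wild-type ESC line EBRTcH3 (male, 129sv). MEFs were grown without LIF and both ESC lines with LIF and serum. The remaining 7 arrays held 2B1 partial iPSCs after retroviral transduction with an empty vector, Cnot1, Cnot2, Cnot3, Trim28, Cnot1,2,3 together or Nanog, with 1 array per insert. The Cnot proteins belong to the Ccr4-Not complex, which shortens the poly(A) tails of mRNA. Trim28 is a corepressor of transcription, and Nanog is a transcription factor of pluripotent cells.

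Partial iPSCs are reprogrammed cells that have left the fibroblast state without switching on the whole pluripotency network. During reprogramming, fibroblasts pass through a mesenchymal to epithelial transition, in which cell contacts built on E-cadherin, claudins and keratins are gained. Transcription factors of the Zeb and Snai families repress epithelial genes by binding E-box motifs in their promoters, and the splicing factor Esrp1 sets the epithelial forms of many transcripts. 2i medium carries cells to the naive pluripotent state.

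On the labelled identity of the cells, both untreated arrays gave the values of partial reprogramming. Pou5f1, a reprogramming factor, read 13.25 in 2B1 and 13.16 in 5C5. Nanog read 3.85 and 4.36, against 13.12 and 12.54 on the ESC arrays, and Sox2 read 4.67 and 3.85, against 12.66 and 12.91. Where an introduced factor and the endogenous gene share sequence, a probe set reads both. Taken by brightest probe sets, the germline, muscle, Ccr4-Not and blood lists (14, 8, 14 and 10 genes) held 0 members. Over all autosomal genes taken the same way, 3.04% were higher and 4.65% lower in 2B1, so lists this short would hold few. Of the 14 germline genes, 13 were below the table median on each untreated array, which leaves little room for a difference. In the blood list, Ptprc, which marks white blood cells, read 3.02 and 3.05.

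The deposited values formed 2 normalization blocks of 7 arrays. The transduced 2B1 arrays were in the other block from the untreated clones, so levels set across the blocks carry that difference (array means of 6.09 in the first block, and 5.87 to 5.88 in the other). Among the transduced arrays, those labelled empty vector and Nanog stood farthest from untreated 2B1 in the median level of the members, with Trim28 next. A set of 125 probe sets at least 3 log2 units higher in 5C5 was formed after the values were seen. Its median level was 8.74 in untreated 5C5, 4.64 in untreated 2B1, 7.98 with empty vector and 7.24 with Nanog. With Trim28 it was 6.99, and with the Cnot factors 4.54 to 6.16. The noncoding RNA Xist, which is X-linked and so no member, also differed between these arrays: it read 2.98 in untreated 2B1, 11.31 in untreated 5C5, 12.13 with empty vector, 12.05 with Nanog and 2.77 with Cnot1,2,3. Its values with Trim28, Cnot2, Cnot3 and Cnot1 were 11.11, 9.78, 9.10 and 7.32. The introduced factors could not be checked well. Nanog read 3.12 on the array labelled Nanog and 4.11 with empty vector. In the same order Trim28 read 11.12 and 11.45, Cnot3 9.01 and 8.95, and Cnot2 9.47 and 9.39. On their brightest probe sets, Trim28 read 11.97 and 11.98, and Cnot2 9.69 and 10.01. Whether the probes cover the introduced cDNA is not given in the sources used here.

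Of the 29 gene lists described, that of epithelial adhesion had the lowest median difference, and its genes were dimmer in 2B1 than in 5C5. Cdh1, which encodes E-cadherin, read 7.40 in 2B1 and 11.87 in 5C5, a difference of -4.47. MEFs read 2.79 for Cdh1, and the ESC arrays 11.20 and 11.69. For this gene 5C5 lay at the ESC level and 2B1 between fibroblasts and ESCs. Epcam, an epithelial adhesion molecule, read 8.08 in 2B1 and 11.26 in 5C5, with 4.61 in MEFs and 10.29 and 11.37 in ESCs. Only 1 of the 2 probe sets of Epcam was a member in this direction. Esrp1 read 4.38 in 2B1 and 10.75 in 5C5, and 3.71 in MEFs. The ESC lines differed for Esrp1, with 5.58 in Nanog-GFP ESCs and 10.12 in EBRTcH3. The 2B1 minus 5C5 difference of Esrp1, -6.37, was the largest of the epithelial genes listed.

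Of 25 measured genes of epithelial adhesion and junctions, each taken by its brightest probe set, 13 were at least 1 lower in 2B1 and 0 were higher, with a median difference of -1.53. Over all 17401 autosomal genes taken the same way, 4.65% were lower and 3.04% higher, with a median of 0.01. The median level of the junction list was 7.10 in 2B1, 8.58 in 5C5, 6.91 in Nanog-GFP ESCs and 7.74 in EBRTcH3. By this median 5C5 lay above both ESC lines. The tight junction genes Cldn7 (4.10 in 2B1 and 9.30 in 5C5) and Cldn4 (3.91 and 7.89) led the list with Cdh1. Crb3, a determinant of the apical domain, read 6.53 and 9.06, and Marveld3, of tight junctions, 4.32 and 7.19. Desmosomal Dsg2 read 10.46 and 12.51. The 6 probe sets of Dsg2 did not all run one way: a dimmer one read 6.62 in 2B1 and 5.29 in 5C5.

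Of 17 epithelial regulators and surface proteases, 9 were lower in 2B1 and 0 were higher (median -1.14). Besides Esrp1 these included Rab25, a GTPase of apical recycling (5.96 in 2B1 and 9.30 in 5C5), the protease inhibitors Spint2 (9.97 and 12.26) and Spint1 (6.58 and 8.58), the protease St14 that they inhibit (8.01 and 9.86), and the transcription factors Ovol2 (4.37 and 5.98) and Grhl2 (5.98 and 7.12). These counts leave out Ehf, an epithelial ETS factor, whose brightest probe set was no member. Its other 3 probe sets were higher in 2B1, by up to 3.93 (6.86 and 2.93). Among 10 keratins, Krt8 (5.43 and 9.59), Krt20 (5.51 and 9.04) and Krt17 (4.33 and 6.86) were lower in 2B1, while the list's median was -0.15, or -2.53 without probe sets dim on both arrays. Krt18, the usual partner of Krt8, was near the low end of both arrays (3.63 and 3.71), and Krt19 was bright on both (9.97 and 10.07). The lower signal in 2B1 thus covered part of the keratins measured. Of 19 claudins, 5 were lower in 2B1, with Cldn9 (6.14 and 8.69), Cldn3 (6.00 and 8.19) and Cldn6 (5.05 and 6.60) beside Cldn7 and Cldn4. Cldn11 was the single claudin that was higher, and the list's median was -0.08, or -1.55 without probe sets dim on both arrays.

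Promoters of 6 epithelial genes that were lower in 2B1 are shown because they hold the motif of the Zeb and Snai repressors. They are the largest differences among such genes with the motif, and Krt20, with a larger difference than some of them, had a window with 0 matches. Esrp1 (-6.37) and Cdh1 (-4.47) had no promoter window and were not searched. Cldn7 had 2 windows, of which 1 held the motif and is shown. The letters searched were CACCTG and its reverse complement CAGGTG, in the 250 bases before the RefSeq start of each gene (GRCm38.p6). Capitals mark the motif in the last 120 of those bases, written 5′ to 3′ on the strand of the gene and ending at the base before the start. Cldn11, a claudin that was higher in 2B1, is shown for comparison and has 0 matches.
Cldn7, chr11:69965301-69965420, plus strand: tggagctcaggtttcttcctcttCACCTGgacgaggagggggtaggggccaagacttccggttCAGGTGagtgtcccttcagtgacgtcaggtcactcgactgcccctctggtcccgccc
Krt8, chr15:102004343-102004462, minus strand: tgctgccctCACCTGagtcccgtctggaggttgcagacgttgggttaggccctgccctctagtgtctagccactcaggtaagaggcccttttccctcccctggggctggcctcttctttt
Cldn4, chr5:134946935-134947054, minus strand: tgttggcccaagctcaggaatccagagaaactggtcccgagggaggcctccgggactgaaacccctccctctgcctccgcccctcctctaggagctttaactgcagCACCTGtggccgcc
Rab25, chr3:88548280-88548399, minus strand: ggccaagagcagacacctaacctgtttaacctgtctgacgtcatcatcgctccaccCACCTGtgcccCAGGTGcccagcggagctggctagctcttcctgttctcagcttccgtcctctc
Epcam, chr17:87635859-87635978, plus strand: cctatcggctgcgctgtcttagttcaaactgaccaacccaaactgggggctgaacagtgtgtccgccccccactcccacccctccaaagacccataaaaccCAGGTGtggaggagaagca
Crb3, chr17:57062081-57062200, plus strand: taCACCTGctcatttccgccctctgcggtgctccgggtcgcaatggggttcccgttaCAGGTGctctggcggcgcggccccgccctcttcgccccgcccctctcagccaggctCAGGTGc
Cldn11, chr3:31149800-31149919, plus strand: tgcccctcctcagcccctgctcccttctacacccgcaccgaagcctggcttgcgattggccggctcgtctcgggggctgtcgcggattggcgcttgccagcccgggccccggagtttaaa

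The printed windows were chosen for their motifs, so the shares over whole lists are the measure to read. Of the 25 epithelial list genes that were lower in 2B1, 14 had a promoter window and 10 of these held the motif (71.4%). Of the other 27 epithelial list genes, 16 had a window and 9 held it (56.2%). The share was 20.1% over 13832 autosomal genes measured with a window and 17.2% over all 32851 windows. Genes of the 5C5-high members held it in 31.1% of 775 cases, and genes of the 2B1-high members in 15.8% of 568. A match is a stretch of letters and not a measured binding site. The motif was frequent in the epithelial lists whether or not the gene was lower in 2B1.

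Among the mesenchymal transition factors, Zeb1 was the single one of 13 that lay 1 or more higher in 2B1, and 0 were lower. It read 10.63 in 2B1, 8.68 in 5C5 and 10.57 in MEFs, and 3 of its 4 probe sets were members in that direction. Zeb2 (5.34 and 4.97), Snai1 (5.23 and 4.65), Snai2 (8.08 and 8.10) and Twist1 (7.40 and 7.72) lay closer together than the threshold. Of 32 fibroblast genes, 1 was higher in 2B1, the collagen Col5a2 (10.39 and 8.69), and 1 was lower, the proteoglycan Dcn (8.41 and 9.49). These counts were near the shares over all autosomal genes taken by brightest probe sets, 3.04% higher and 4.65% lower. The median difference of the fibroblast list was 0.33, against 0.01 over all autosomal genes. Vim, the intermediate filament of mesenchymal cells, read 13.32 and 13.10. In a mixed population, more cells of a type and more RNA per cell cannot be told apart on such arrays.

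**Figure D1:**
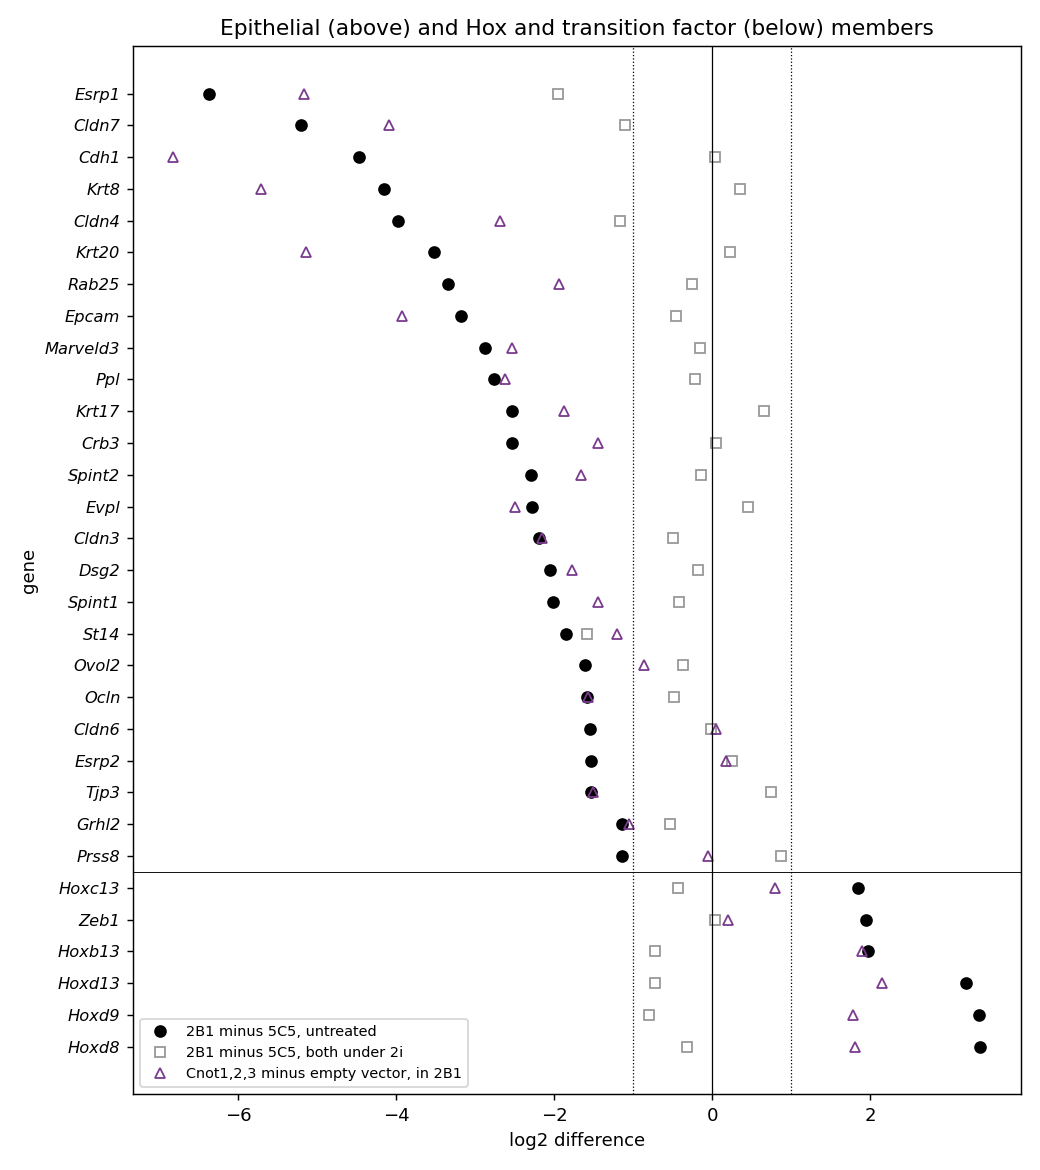
Log2 differences (horizontal axis) of the 25 epithelial list genes that were at least 1 lower in untreated 2B1, and below the line of the 5 Hox genes and Zeb1 that were higher, each by its brightest probe set. Filled circles are 2B1 minus 5C5 untreated, squares the same difference under 2i, and triangles Cnot1,2,3 minus empty vector in 2B1; each symbol is a difference between 2 single arrays. Cdh1 stands at -4.47, 0.04 and -6.82 on these scales.

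The 15 genes with the largest differences toward 5C5 were led by Kdf1, a differentiation factor of keratinocytes. It read 2.26 in 2B1 and 8.85 in 5C5, the largest difference in that direction (-6.59). Slc6a15, a neutral amino acid transporter of neurons, read 2.78 and 9.24. Kcnk1, a potassium leak channel, read 3.67 and 10.10. Prph, the intermediate filament of peripheral neurons, read 5.45 and 11.83, although only 1 of its 4 probe sets was a member. The first 3 of these genes were under the 25th percentile of the 2B1 array (3.82), while Prph was at its median (5.47).

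Klk1, a tissue kallikrein, was bright in 5C5 (13.24) and moderate in 2B1 (6.98). Pycard, the adaptor of the inflammasome, read 3.66 in 2B1, 9.33 in 5C5 and 10.96 and 10.86 under 2i, so that untreated 2B1 was the exception among the reprogrammed cells of the first block. Only 1 of its 3 probe sets was a member. Adcy8, an adenylyl cyclase (3.28 in 2B1 and 8.89 in 5C5), and Adgrb3, an adhesion receptor of synapses (2.97 and 8.53), were near background on the MEF, ESC and 2i arrays, where they read at most 3.39. For both genes 5C5 was the single bright array of its block.

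Exph5, a vesicle trafficking protein of keratinocytes (4.83 in 2B1 and 10.34 in 5C5), and Lrrc31, a leucine-rich repeat protein (2.72 and 7.83), belonged to the same top 15, as did Gnai1, an inhibitory G protein subunit (6.00 and 10.95). Cd164l2 (5.24 and 10.16) and Arc, an immediate early gene of synapses (5.32 and 10.24), closed it, with Cldn7 and Esrp1 above. In 7 of these 15 genes the 2B1 value was under the 25th percentile of its array (3.82), near background.

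The largest differences toward 2B1 were led by 3 genes that were dim on the rest of the first block. Sectm1a, a small secreted and membrane protein of the immunoglobulin superfamily, read 10.28 in 2B1 and 2.79 in 5C5. This difference of 7.50 was the largest of all members. On the 2i, MEF and ESC arrays Sectm1a lay between 3.07 and 3.35. Cldn11, a claudin of myelin and testis, read 9.42 in 2B1, 2.62 in 5C5 and at most 3.25 on the other arrays of the block. Nat8f3, of a family of acetyltransferase genes, read 10.29 and 3.54, and at most 3.28 elsewhere in the block. On each of these genes untreated 2B1 was alone among the 7 arrays.

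Akr1c18, which inactivates progesterone, was the brightest of the 15 (12.92 in 2B1 and 6.66 in 5C5). Mzb1, a chaperone of antibody-secreting cells, read 11.50 and 5.31. Srgn, the proteoglycan of secretory granules, read 11.70 and 6.02. Tgm2, a protein cross-linking transglutaminase, read 10.82 and 5.71, and 5 of its 6 probe sets were members in the same direction. Unlike the first genes, Srgn and Tgm2 were also expressed under 2i, with 10.18 and 8.79 for Srgn and 8.39 and 8.49 for Tgm2 in 2B1 and 5C5.

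AI662270, a transcript without a named product, read 9.68 in 2B1 and 3.89 in 5C5, but 10.15 and 9.99 under 2i and 11.23 in Nanog-GFP ESCs. The remaining genes of the top 15 were Saxo1, a microtubule protein of axonemes (9.69 and 3.94), Ano4, of the anoctamin family (8.91 and 3.18), Ccdc141 (9.26 and 3.95), the forkhead factor Foxd1 (8.94 and 4.11), the serine protease Tmprss5 (10.03 and 5.22), the fatty acyl-CoA synthetase Acsbg1 (10.16 and 5.67) and Mansc1 (9.71 and 5.25). The 5C5 value lay under the 25th percentile of its array (3.81) in 4 of the 15.

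**Figure D2:**
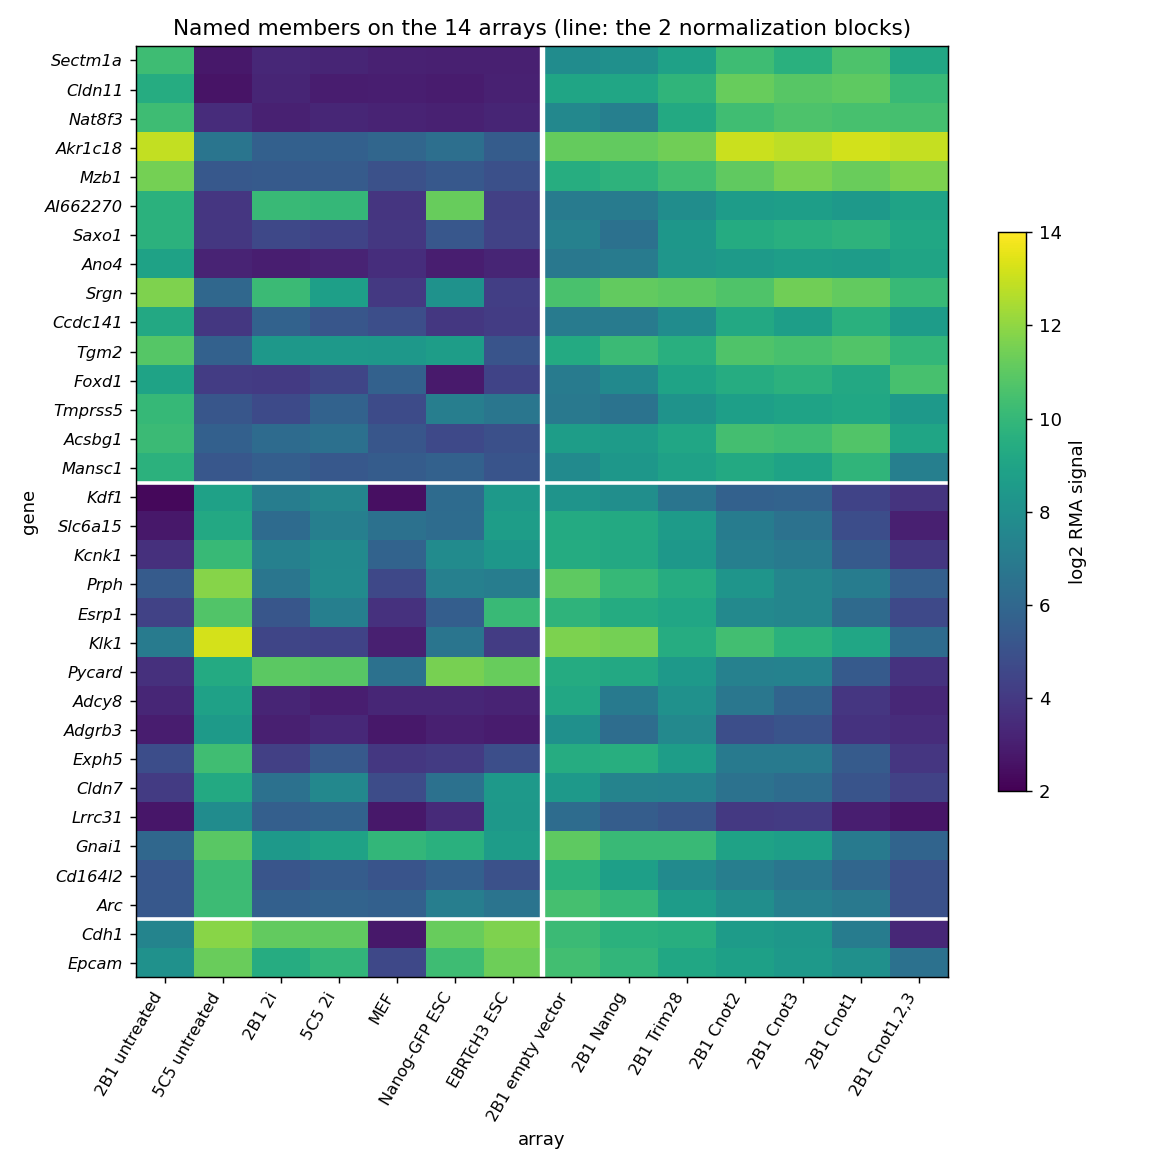
Log2 RMA signal (colour) of the 15 members with the largest differences in each direction and of the markers Cdh1 and Epcam, on the 14 arrays. The vertical white line parts the normalization blocks, and the transduced arrays are ordered by their Xist level. Sectm1a runs from 2.79 in untreated 5C5 to 10.64 with Cnot1.

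Other lists, again with each gene taken by its brightest probe set, showed smaller groups of members. Of 33 Hox genes, the transcription factors of body axis position, 5 were higher in 2B1 and 0 were lower (median 0.25). Hoxd8 read 9.08 in 2B1, 5.69 in 5C5 and 7.51 in MEFs. Hoxd9 read 9.10, 5.74 and 7.63, and Hoxd13 read 7.44, 4.23 and 8.29, in the same order. Hoxb13 (6.53 and 4.55) and Hoxc13 (5.51 and 3.67) were dimmer. Hoxd10, Hoxd11 and Hoxd12, which lie between Hoxd9 and Hoxd13, read at most 3.99 on either array.

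Of 19 interferon response genes, 4 were higher in 2B1 and 0 were lower (median 0.67). These were Ifitm1 (10.56 and 8.65), Oasl2 (7.31 and 5.94), Oas1a (9.84 and 8.60) and Gbp2 (6.97 and 5.85), all products of antiviral defence. Of 18 chemokines and cytokines, Ccl7 (7.59 and 6.21), Cxcl14 (8.79 and 7.53), Ccl5 (9.39 and 8.25) and Cxcl10 (8.62 and 7.55) were higher, and Cxcl5 (4.71 and 6.11) was lower. Among 12 genes of antigen presentation, the peptide transporter Tap1 (8.51 and 7.03) was higher. The 4 higher genes of 17 glutathione and xenobiotic enzymes were Aldh3a1 (8.57 and 5.95), Gstm1 (10.27 and 8.79), Gstt1 (6.80 and 5.68) and Cyp1b1 (7.11 and 6.08), with Aldh1a2, which makes retinoic acid, lower (4.70 and 8.68).

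Pluripotency genes differed at a few places. Of 15 general pluripotency genes, Utf1 (6.87 in 2B1 and 9.67 in 5C5), Tdgf1 (11.73 and 13.34) and Zscan10 (8.17 and 9.74) were lower in 2B1 and 0 were higher. Utf1 read 10.89 and 10.65 in ESCs, nearer the 5C5 value. Of 19 naive genes, Tfcp2l1 (6.87 and 5.65) and Tbx3 (6.26 and 5.12) were higher in 2B1 and the growth factor Fgf4 (9.41 and 10.45) was lower. Tfcp2l1 read 11.41 and 11.65 in ESCs, far above either clone. Of 10 primed epiblast genes, 4 were lower in 2B1 and 0 higher: the transcription factors Eomes (4.13 and 6.68), Zic2 (5.91 and 7.75) and Zic5 (9.58 and 11.06), and the ligand Nodal (6.83 and 8.22). The 4 reprogramming factors held 0 members by their brightest probe sets.

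Of 19 imprinted genes, 5 were lower in 2B1 and 1 was higher. Phlda2, a growth-restraining gene of the placenta, read 5.31 in 2B1 and 9.47 in 5C5, and Grb10, an adaptor that dampens insulin signalling, read 10.00 and 12.02. Mest (6.90 and 8.65), Sgce (5.86 and 7.30) and Ndn (8.83 and 10.25) were the others, while Cdkn1c, a cell cycle inhibitor, was higher (6.57 and 4.93). Phlda2 and Cdkn1c share an imprinted domain, and they lay apart in opposite directions.

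Most signalling and lineage lists held a few members, in both directions. Among all autosomal genes taken by brightest probe sets, 3.04% were higher and 4.65% lower in 2B1. Among 18 ERK targets, 3 were lower, led by the phosphatase Dusp4 (10.04 in 2B1 and 11.81 in 5C5), and Phlda1 (11.32 and 9.55) was higher. Of 12 Wnt targets, 4 were lower, led by the receptor Lgr5 (3.46 and 5.97), and Lef1 (6.10 and 4.58) was higher. Of 13 LIF and STAT3 targets, the receptor Lifr (10.07 and 9.06) and Tfcp2l1 were higher and the receptor Osmr (9.14 and 10.61) was lower. Of 15 genes of p53 and cell cycle inhibitors, Igfbp3, which binds insulin-like growth factors, was lower (9.31 and 11.66) and 2 were higher, Cdkn1c and Sesn1 (9.53 and 8.52). Smad6, an inhibitor of BMP signals, was the largest of 3 lower genes among 11 BMP targets (6.89 and 8.30), and 0 were higher. Of 8 neural genes, the transcription factors Pax6 (6.88 and 9.19) and Sox1 (7.60 and 9.88) and the filament gene Nes (7.45 and 8.55) were lower in 2B1 and the adhesion gene Ncam1 was higher (9.67 and 8.11). The trophoblast list gave Tfap2c (8.75 and 6.05) as higher and Eomes (4.13 and 6.68) as lower, and the endoderm list gave Dab2 (9.48 and 7.61) and Afp (6.37 and 5.03) as higher and Apoe (8.50 and 9.71) as lower. Taken by brightest probe sets, matrix proteases held 0 members, with a list median of 0.43.

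The iPSCs that each clone gave under 2i used none of the arrays of the rule. Between them, 337 of all autosomal probe sets (1.0%) lay 1 or more apart, against 6.77% between the untreated clones. Of the 980 members higher in untreated 2B1, 21 were also at least 1 higher in the 2i cells of 2B1 (2.14%, against 0.372% of all autosomal probe sets). Of the 1292 members higher in untreated 5C5, 49 were also at least 1 higher in the 2i cells of 5C5 (3.79%, against 0.631%). Most members were close together under 2i: 96.2% of the 2B1-high and 95.4% of the 5C5-high members were under 1 apart, where 99.0% of all autosomal probe sets were. Cdh1 read 11.10 in 2B1 and 11.06 in 5C5, and Sectm1a 3.35 and 3.23. Taken by gene, 0.425% of autosomal genes were higher and 0.879% lower in the 2i cells of 2B1. Of the 13 junction genes low in untreated 2B1, 2 were at least 1 lower under 2i, and of the 9 regulators, 2.

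**Figure D3:**
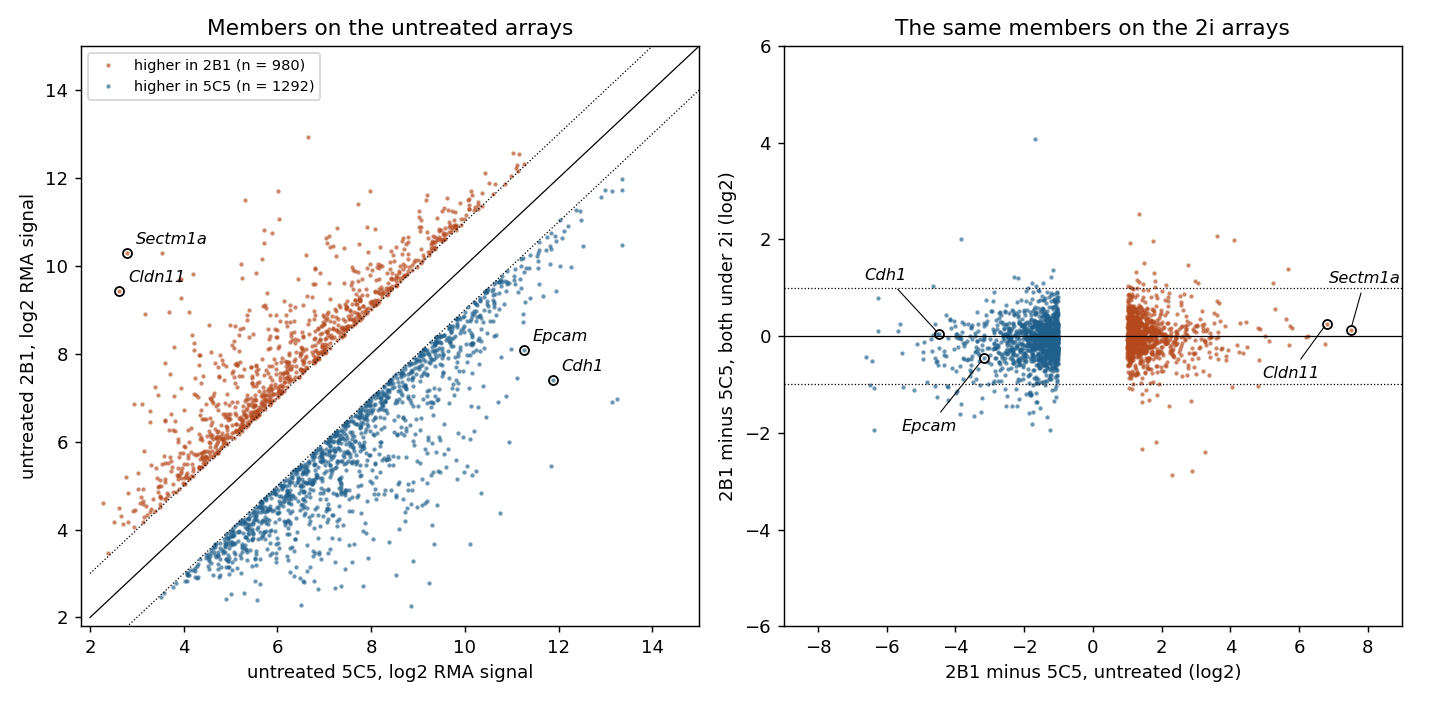
The left panel plots the log2 RMA signal of the 2272 members in untreated 5C5 (horizontal) and untreated 2B1 (vertical), with dotted lines at the threshold of 1. The right panel plots the same members by their untreated difference (horizontal) and their 2i difference (vertical, dotted lines at 1 and -1), and most points lie between the dotted lines, with Sectm1a at 0.13.

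Levels under 2i were reached from both sides. Of the 2B1-high members, 52.0% were at least 1 lower in 2B1 under 2i than untreated and 26.0% were at least 1 higher in 5C5. Of the 5C5-high members, 51.5% were at least 1 lower in 5C5 and 33.0% at least 1 higher in 2B1. Over all autosomal probe sets these shares ran from 6.07% to 6.81%. The shares share the untreated arrays with the rule, which favours such moves, so they are given as a description. Sectm1a, Cldn11 and Akr1c18 were lower in 2B1 under 2i by 6.93, 6.17 and 7.23 log2 units, and came to the value of 5C5. Cdh1, by contrast, was 3.70 higher in 2B1 and 0.80 lower in 5C5.

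Members that kept their direction under 2i included genes of several kinds. Esrp1 read 5.21 in the 2i cells of 2B1 and 7.16 in those of 5C5, and the neurofilament gene Nefl read 6.54 and 8.16 on its member probe set with the larger untreated difference. Nt5e, the ectoenzyme CD73, read 3.49 and 5.43. On the other side, Lama1, a chain of basement membrane laminin, read 9.39 in 2B1 and 7.42 in 5C5, and Exoc4, a subunit of the exocyst, 5.96 and 3.90 on 1 member probe set. Srgn stayed higher in 2B1 (10.18 and 8.79).

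Some members lay at least 1 the other way under 2i. These were 16 of the 2B1-high (1.63%, against 0.631% of all autosomal probe sets) and 10 of the 5C5-high (0.774%, against 0.372%). Mal, a membrane raft protein, read 10.44 in untreated 2B1 and 7.19 in 5C5, but 3.76 and 6.17 under 2i. Aspa, which cleaves acetylaspartate, read 9.90 and 7.61 untreated and 6.06 and 8.94 under 2i. Cd3g, a chain of the T cell receptor complex, read 6.49 and 3.59, then 3.88 and 6.65. Lama3, a laminin chain of epithelia, read 6.10 and 9.95, then 9.25 and 7.24. The channel gene Trpm1 read 4.86 and 6.55, then 10.74 and 6.66, the widest gap of the members under 2i.

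The transduced 2B1 arrays gave another readout, of cells labelled as derived from 2B1. Each was set against the empty vector array within its own block. These 6 comparisons share that array, and so are not independent of each other. On the Cnot1,2,3 array, 53.8% of the 5C5-high members were at least 1 lower than with empty vector, against 5.17% of all autosomal probe sets, and 28.1% of the 2B1-high members were higher, against 2.4%. With Cnot1 alone these shares were 49.4% lower (background 3.61%) and 45.2% higher (background 2.46%). With Cnot3 they were 43.7% (3.22%) and 32.1% (1.46%), and with Cnot2 37.4% (2.31%) and 34.5% (1.63%). Trim28 gave 13.5% (0.959%) and 10.3% (0.581%), and Nanog 7.82% (0.578%) and 2.24% (0.351%). Members thus also lay apart between arrays labelled as 1 clone, mostly in the direction in which the untreated clones differed. The 2B1-high members on the Nanog array were an exception: 2.24% were higher and 1.63% lower (background 0.351% and 0.578%), with a median of -0.01. The label as 1 clone was not checked, and the empty vector array stood apart from untreated 2B1 as given above. The level of Xist, given above, ran along these arrays in the same order as Cdh1, and its part in the result was not tested.

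**Figure D4:**
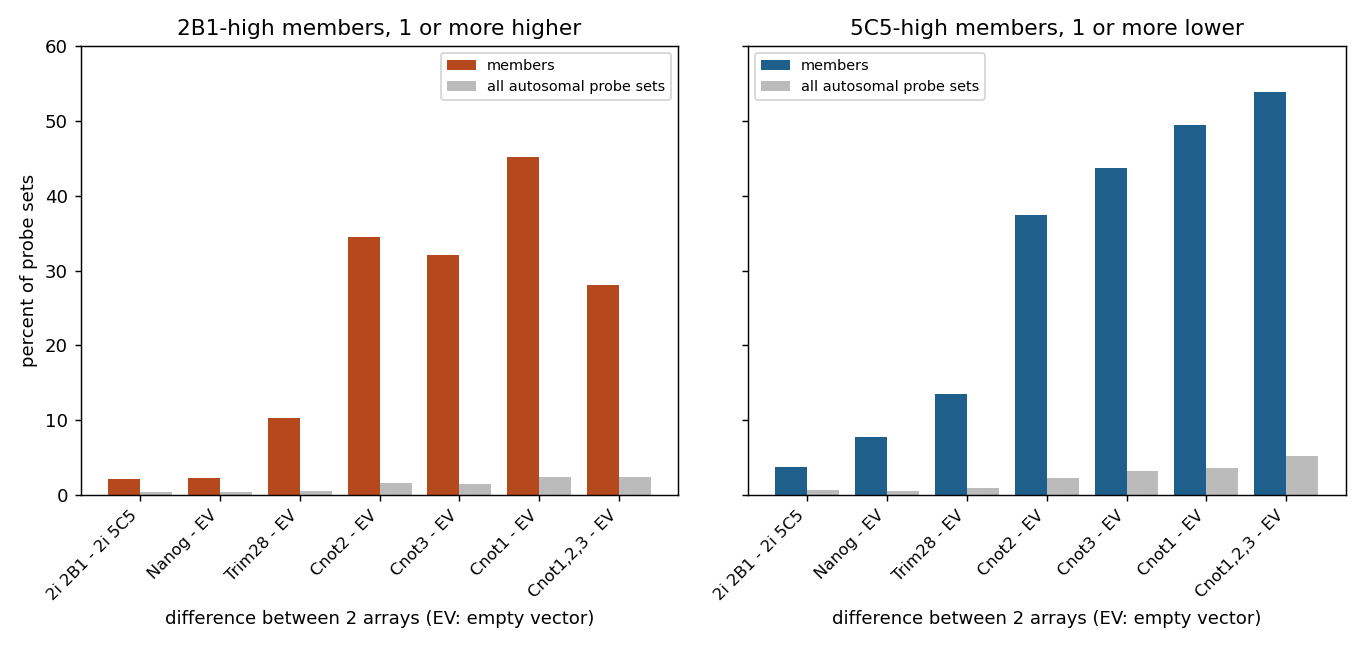
Percent of members (coloured bars) and of all 33584 autosomal probe sets (grey bars) at least 1 log2 unit higher (left, the 980 2B1-high members) or lower (right, the 1292 5C5-high members) in 7 differences between 2 arrays. The Cnot1,2,3 array against empty vector (EV) gives 28.1% on the left and 53.8% on the right, and the 2i arrays give 2.14% and 3.79%.

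Among single members, Cdh1 read 10.17 with empty vector, 9.66 with Nanog, 9.50 with Trim28, 8.59 with Cnot2, 8.35 with Cnot3, 7.02 with Cnot1 and 3.34 with Cnot1,2,3. Untreated 2B1, at 7.40 in the other block, lay within this range, and the Cnot1,2,3 array was near the MEF value of 2.79. Kdf1 ran from 8.22 with empty vector to 3.79 with Cnot1,2,3, and Slc6a15 from 9.34 to 3.06. In 15 of the 15 top 5C5-high genes the lowest transduced array was Cnot1,2,3, and the highest was empty vector or Nanog. These genes were picked for their size, and the same count over all autosomal probe sets was not made. The Cnot1,2,3 and Nanog arrays were also the transduced pair farthest apart in general, with 7.66% of autosomal probe sets 1 or more apart.

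Over all 980 2B1-high members, the median level was 6.37 with empty vector and 6.36 with Nanog, against 7.89 in untreated 2B1 and 6.08 in untreated 5C5. With empty vector, 20.4% of them were nearer to the value of untreated 2B1, or 27.9% with the blocks centred, and with Nanog 19.8%, or 28.6%. With Cnot1 the share was 66.3%, or 75.6%. Each of the 15 genes with the largest differences was higher on every transduced array than in untreated 5C5, with the block difference noted above. Sectm1a read 7.83 with empty vector, 8.03 with Nanog, 8.88 with Trim28, 9.21 with Cnot1,2,3, 9.62 with Cnot3, 10.28 with Cnot2 and 10.64 with Cnot1. Cldn11 read 9.05 with empty vector and 9.83 to 11.23 with Trim28 and the Cnot factors. Empty vector was below Cnot1,2,3 in 13 of the 15, and the exceptions were Srgn (10.55 and 10.10) and Mansc1 (7.75 and 7.17). Such counts over 15 picked genes were not made over all autosomal probe sets. Of the 1292 5C5-high members, 40.7% were nearer untreated 2B1 with empty vector (29.5% centred) and 51.6% with Nanog (41.2% centred).

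Across lists, 12 of the 13 junction genes that were low in untreated 2B1 were also at least 1 lower with Cnot1,2,3 than with empty vector, where 6.18% of all autosomal genes were lower and 2.68% higher. The exception was Cldn6 (4.14 and 4.09). Of the 9 epithelial regulators, 6 were lower there too, and of the 5 Hox genes, 4 were higher. Hoxd9 read 7.02 with empty vector and 8.79 with Cnot1,2,3. Zeb1 read 9.52 and 9.73, and was highest with Cnot1 (10.80). Of the 4 interferon response genes, 0 were 1 or more higher with Cnot1,2,3, and Ifitm1 read 9.94 and 8.96.

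As a measure of spread, 21 pairs of the transduced arrays can be formed. From 0.372% (Cnot1 and Cnot2) to 7.66% (Cnot1,2,3 and Nanog) of autosomal probe sets lay 1 or more apart within such a pair. The untreated clones, at 6.77%, lay inside this range, which spans arrays with different inserts. The ESC lines, which differ in strain, were 10.9% apart.

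By chromosome, 1 autosome stood apart. Over 1031 chromosome 6 probe sets that were bright on at least 1 untreated array, the median difference was 0.314 and 72.6% were above 0. The medians of the other autosomes lay between -0.041 (chromosome 15) and 0.054 (chromosome 11). Of 149 members on chromosome 6, 102 were higher in 2B1 (68.5%). The median of chromosome 6 was 0.196 under 2i, on arrays outside the rule, with 75.1% above 0. Against empty vector it was 0.218 with Cnot1, 0.198 with Cnot2, 0.203 with Cnot3, 0.246 with Cnot1,2,3, 0.099 with Trim28 and -0.030 with Nanog. The copy number of the chromosome was not measured, and its part in these values was not tested. Nat8f3 and Mansc1 of the top 15 are on chromosome 6.

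Chromosome 11 behaved differently. Its median was 0.054 between the untreated clones and 0.008 under 2i, but -0.380 with Cnot1, -0.291 with Cnot2, -0.244 with Cnot3, -0.319 with Cnot1,2,3, -0.154 with Trim28 and -0.018 with Nanog, each against empty vector. The values of Sectm1a and Cldn7, both on chromosome 11, on the transduced arrays are to be read beside these shifts.

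**Figure D5:**
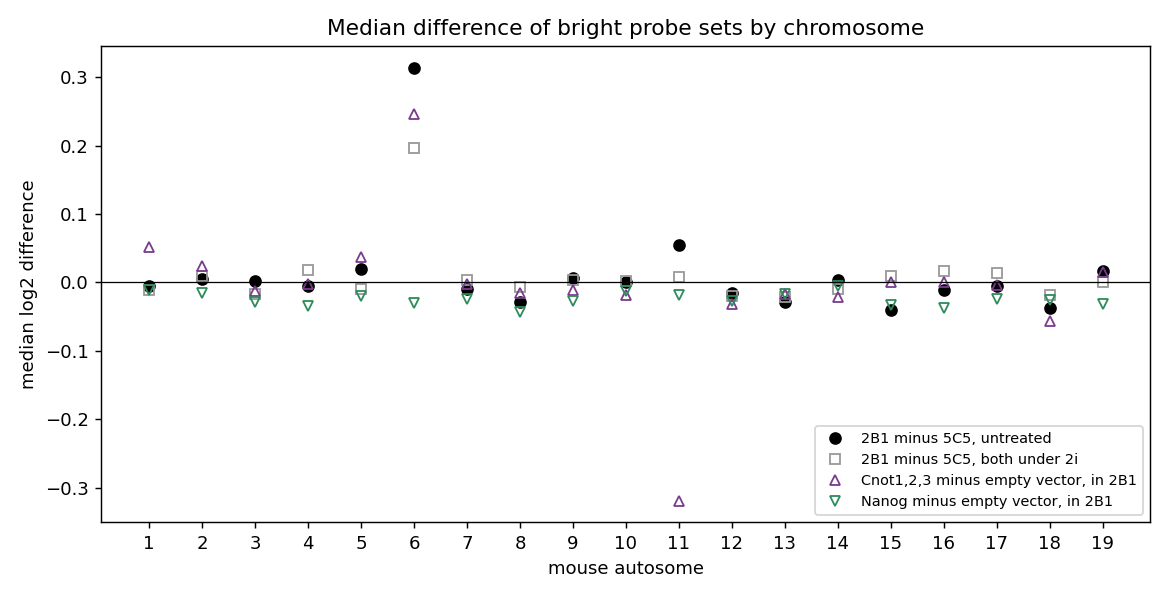
Median log2 difference (vertical axis) of probe sets bright on at least 1 untreated array, for each mouse autosome (horizontal axis). Circles are 2B1 minus 5C5 untreated, squares the same under 2i, and triangles the Cnot1,2,3 and Nanog arrays against empty vector. Chromosome 6 stands at 0.314 untreated and 0.196 under 2i.

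Members rarely formed long runs of neighbours. Here a gene was called if any of its probe sets was a member and all its members ran one way. This called 736 genes toward 2B1 and 1008 toward 5C5, more than by brightest probe sets. Called so, 18 runs of 3 or more adjacent measured genes lay apart in the same direction, 8 higher in 2B1 and 10 higher in 5C5. The longest held 4 genes. Of the 8 that were higher in 2B1, 4 lay on chromosome 6, whose median was shifted toward 2B1 as given above, and of the other 10, 2 lay there. Zic5 and Zic2, paired zinc finger genes of the early nervous system, were in one of these with Gm5089 and 2610035F20Rik, and all 4 were higher in 5C5 (Zic5 9.58 and 11.06, Gm5089 6.11 and 9.45). Bnc2, Cntln, Sh3gl2 and Adamtsl1 formed another (Bnc2 4.40 and 8.73). Dipk2a, Slc9a9, Chst2 and U2surp formed the last of this length (Chst2 5.05 and 6.62). Lrrc31 was next to Lrriq4, with Lrrc34 (7.26 and 10.38) beyond it. In 2B1, Trim12c (7.77 and 4.83), Trim30a and Trim30d, of a cluster of antiviral genes, were higher together.

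A stretch around Riok3, singled out after the values were seen, held several members that kept their direction under 2i. Riok3, an atypical kinase, read 10.89 in 2B1 and 7.92 in 5C5 on its member with the largest difference, and 9.76 and 8.62 under 2i. Its other probe sets were not higher in 2B1 under 2i, and the brightest read 11.86 and 10.86, then 10.94 and 11.17. Its neighbour Tmem241 read 9.20 and 6.14 untreated and 5.97 and 4.89 under 2i. Rmc1, on the other side, read 10.25 and 8.46, then 8.69 and 8.39, and so did not stay 1 apart. Usp14, further off, stayed apart on 1 probe set (8.05 and 6.55, then 8.10 and 6.58). In the same stretch Impact read 7.52 and 5.72 on 1 probe set but 9.42 and 9.99 on another, and Lama3, above, was lower in 2B1. The direction was thus not shared by the whole stretch, nor by all probe sets of a gene.

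Members near the threshold differed little from those outside it. Socs6 was the last inside on the 2B1 side (9.978 and 8.978) and Pcdh17 the first outside (5.697 and 4.698). On the 5C5 side Pcgf6 was inside (7.531 and 8.532) and Srek1 outside (7.818 and 8.818). Of the members, 540 reached a difference of 2, with 200 higher in 2B1 and 340 higher in 5C5, and 26 and 47 reached 4. The brighter of the untreated arrays was under the median of the whole table (5.42) in 227 members, and the dimmer one in 927. Of the 1105 member genes with several probe sets, 178 had all of them among the members, and 5 genes had members in both directions.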

How the data were processed

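The data were 1 Affymetrix array of 45101 probe sets per sample, with biotin-labelled cRNA made from TRIzol RNA per the labels' protocols. The deposited values were log2 probe set summaries, made with RMA and the affy package per the submitters' processing notes, with no versions given. RMA includes a background correction and quantile normalization. Ranked values spread over a median of 0.085 within one block of 7 arrays and 0.096 within the other, against 0.318 over all, so the blocks were treated as separately normalized.

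Probe sets were named from the platform's annotation: 34945 had 1 symbol, 932 several, 9160 none, and 64 were controls. Symbols and chromosomes were updated through gene identifiers with RefSeq (GRCm38.p6), which 34737 of those with 1 symbol matched. The members are the 2272 autosomal probe sets at least 1 log2 unit apart. For the 29 gene lists, with 476 symbols, each gene was represented by its brightest probe set (by mean level in the first block of 7 arrays). The text names the 15 members with the largest difference in each direction among those reaching 7 on the brighter array, 4 markers (Cdh1, Epcam, Sectm1a and Cldn11), list members by size, and members of neighbour runs or of the kept or turned 2i groups by size. Genes that did not reach the threshold are named where a list result turns on them. Members and lists were chosen with earlier results of these data known. Bright probe sets in the chromosome medians reached the table median of 5.42 on at least 1 untreated array. Promoters are RefSeq windows. No test was used, since each condition has 1 array, which limits the precision. The scripts ran in Python 3.11.15 with numpy 2.4.6, pandas 2.3.3 and matplotlib 3.10.9, and were tested on simulated data.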

Additional observations from a re-analysis of the deposited data

Results flagged for a closer look

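Some named members went opposite ways in the clones when 2i and untreated arrays were compared, by at least 1 log2 unit each. With 1 array per clone and medium these differences were not tested, and they share the untreated arrays on which the members were chosen. Among the 2B1-high genes, Srgn was lower under 2i in 2B1 (-1.52) and higher in 5C5 (2.77). The values were -3.50 and 1.26 for Ccdc141, and -2.43 and 2.78 for Tgm2.

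Among the 5C5-high genes the order was the reverse. Kdf1 was higher under 2i in 2B1 (4.82) and lower in 5C5 (-1.33). The corresponding values were 3.41 and -2.04 for Slc6a15, 3.56 and -2.37 for Kcnk1, and 1.27 and -4.03 for Prph. Cldn7 gave 2.38 and -1.70, Lrrc31 gave 2.89 and -2.05, Gnai1 gave 2.44 and -2.04, and Epcam gave 1.35 and -1.37. Over all members, 41 of the 2B1-high (4.18%) and 62 of the 5C5-high (4.8%) moved in such opposite ways, against 0.307% of all autosomal probe sets.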

How the results depend on the processing

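The 32 genes of the top lists and markers kept their direction and their side of the threshold with arrays centred on their medians, with quantile normalization of the block and with a filter on dim probe sets. So they did without probe sets named _x_at or _s_at, where 4 were read on another probe set of the gene (AI662270 5.62, Tgm2 4.81, Gnai1 -4.69 and Cd164l2 -4.47). These genes were named for large differences or as markers, and the smallest difference in size was -3.18 (Epcam). The largest shift under these settings was 0.46 (Cd164l2). The filter could not drop them, since each was bright in the clone where it was higher. Their stability was thus largely set by how they were picked, and says little about members near the threshold. With a threshold of 2, the members numbered 200 and 340, and with 1 probe set per gene 529 and 810. With a threshold of 0.5 between the 2i arrays, 102 and 189 members kept their direction.

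Of 435 list values, 388 stayed close, 47 moved and 0 reversed. A median counts as moved from a shift of 0.2. The regulators had 1 higher with centred arrays, without dim probe sets and without _x_at and _s_at probe sets. With centred arrays, antigen presentation and ERK targets had 2 higher each. With quantile normalization, ERK targets had 2 higher and fibroblast genes 2 lower. Without dim probe sets, the medians were -2.53 for keratins, -1.55 for claudins, -1.43 for primed genes, -0.95 for general pluripotency, -0.38 for reprogramming factors, -0.88 for germline genes, -0.30 for imprinted genes and 0.59 for trophoblast genes. Without _x_at and _s_at probe sets, Hox genes had 1 lower and p53 and cell cycle inhibitors 1 higher.

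With all probe sets of a gene, counts are of probe sets and so run higher. The junction list then had 1 higher and 25 lower (median -0.88), and the regulators had 3 higher (median -0.29), which are those of Ehf. Lower counts were 9 for claudins, 5 for keratins, 7 for primed genes, 10 for imprinted genes, 6 for ERK targets, 1 for interferon genes, and 2 each for Hox genes, fibroblast genes, naive genes, LIF targets and p53 genes. Higher counts were 3 for transition factors, 2 for fibroblast genes, 4 each for LIF targets, p53 genes and endoderm, 7 for glutathione enzymes, 3 for trophoblast, 5 for neural genes, and 1 each for matrix proteases and the Ccr4-Not list. The medians were 0.09 for reprogramming factors, -0.76 for primed genes, 0.05 for BMP targets and -0.28 for neural genes.

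No paired analysis was possible because the untreated comparison holds 1 array per clone, so the groups share fewer than 2 replicate numbers. A fit of clone and medium to the 4 arrays of both clones was not run. Background signal limits the size of differences of dim genes.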
